A study of Mus musculus with 26 samples.

Results

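RNA sequencing counts compared sorted mouse pachytene spermatocytes labelled as Nkapl knockout with those labelled wild type. The members are the 4 libraries whose titles name sorted pachytene spermatocytes, 2 labelled knockout and 2 labelled wild type, of 26 samples in the series. The genotype labels read NKAPL KO and wild-type, the tissue is testis, and the titles give day 21. No strain, sorting method or description of the deleted part of Nkapl is attached to these libraries, and the labels do not say whether the 2 libraries of a group came from separate animals. P-values therefore rest on a spread between libraries that may be technical. The 2 knockout and 2 wild-type libraries of sorted round spermatids were fitted together with the spermatocyte libraries and are used for comparison. The spread behind the p-values is shared by all of these groups. The series' design text speaks of 3 replicates per group, and 2 libraries per sorted group were analysed here.

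Pachytene spermatocytes are male germ cells in the long prophase of the first meiotic division, when homologous chromosomes are fully paired, recombination is completed and the sex chromosomes are silenced. In the same period these cells start to transcribe many genes whose products are needed only later, in haploid spermatids, where the acrosome and the tail are built and histones are exchanged for transition proteins and then protamines. Nkapl is a germ cell gene without introns that is related to the X-linked gene Nkap, a nuclear regulator of transcription and splicing. Sox30, a second gene named in the series, encodes a transcription factor of the SOX family that is required in mice for the start of the haploid gene programme.

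Gene totals were 18359167 and 18469799 counts in the spermatocytes labelled knockout and 19209495 and 19569272 counts in those labelled wild type. Reads that the counting assigned to no gene took 23.3% ± 0.246 of all lines in libraries labelled knockout and 19.4% ± 0.880 in libraries labelled wild type (SD, n = 2 each). The groups did not overlap, and the exact two-sided permutation p of 0.333 is the smallest that 2 against 2 libraries allow. Most of the gap lay in reads outside any annotated feature, at 17.3% ± 0.247 and 13.6% ± 0.921 (SD, n = 2 each). In round spermatids these reads took 18.1% and 18.3% of lines in knockout libraries and 13.6% and 13.7% in wild-type libraries. The part of these reads in the gene-level differences was not tested.

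The targeted gene did not follow its label. Nkapl lies on the minus strand of chromosome 13, at 21467047 to 21468509 of GRCm38, as a single exon. Its level was 127 and 125 CPM (counts per library total, scaled between libraries) in the spermatocytes labelled knockout and 90.1 and 86.0 CPM in those labelled wild type. Both libraries labelled knockout were above both libraries labelled wild type. The log2 fold change was 0.51 ± 0.055 (SE), with adjusted p = 3.26e-09 in edgeR's quasi-likelihood test, which gives every adjusted p below. In round spermatids Nkapl measured 24.6 and 23.6 CPM in knockout libraries and 88.4 and 90.3 CPM in wild-type libraries, a log2 fold change of -1.89 in the direction of the labels. The difference between these fold changes was 2.40 ± 0.087 (adjusted p = 4.93e-18), and none of the 15805 genes tested had a smaller p for such a difference. The deleted part is not described, and counts outside it would not check the genotype. Every direction below is that of the libraries as labelled.

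Nkap was low in every library, at 0.626 and 0.413 CPM in spermatocytes labelled knockout and 0.560 and 0.455 CPM in those labelled wild type. Sox30, on the plus strand of chromosome 11 at 45980310 to 46017994, measured 146 and 151 CPM in spermatocytes labelled knockout and 130.3 and 133 CPM in those labelled wild type. This small gap gave a log2 fold change of 0.17 ± 0.06 (adjusted p = 0.014) that was lost under 11 of 19 alternative settings. Its log2 fold change in round spermatids was -0.14. Several genes beside Nkapl on chromosome 13 were higher, as were 34.4% of the tested genes of that chromosome. Zscan26, Pgbd1 and Zkscan3, at lower coordinates, had log2 fold changes of 0.61, 0.71 and 0.52, and the pseudogene Zfp389, at higher coordinates, one of 0.84. Zkscan8 (log2 fold change -0.41) and 4930470G03Rik (0.18) were not called. In knockout spermatids, where Nkapl was lower, Pgbd1 (0.66), Zfp389 (0.89) and 4930470G03Rik (0.35) were higher and Zkscan8 (-0.75) was lower. Zscan26 (0.44) and Zkscan3 (-0.14) were not called there.

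**Figure D1:**
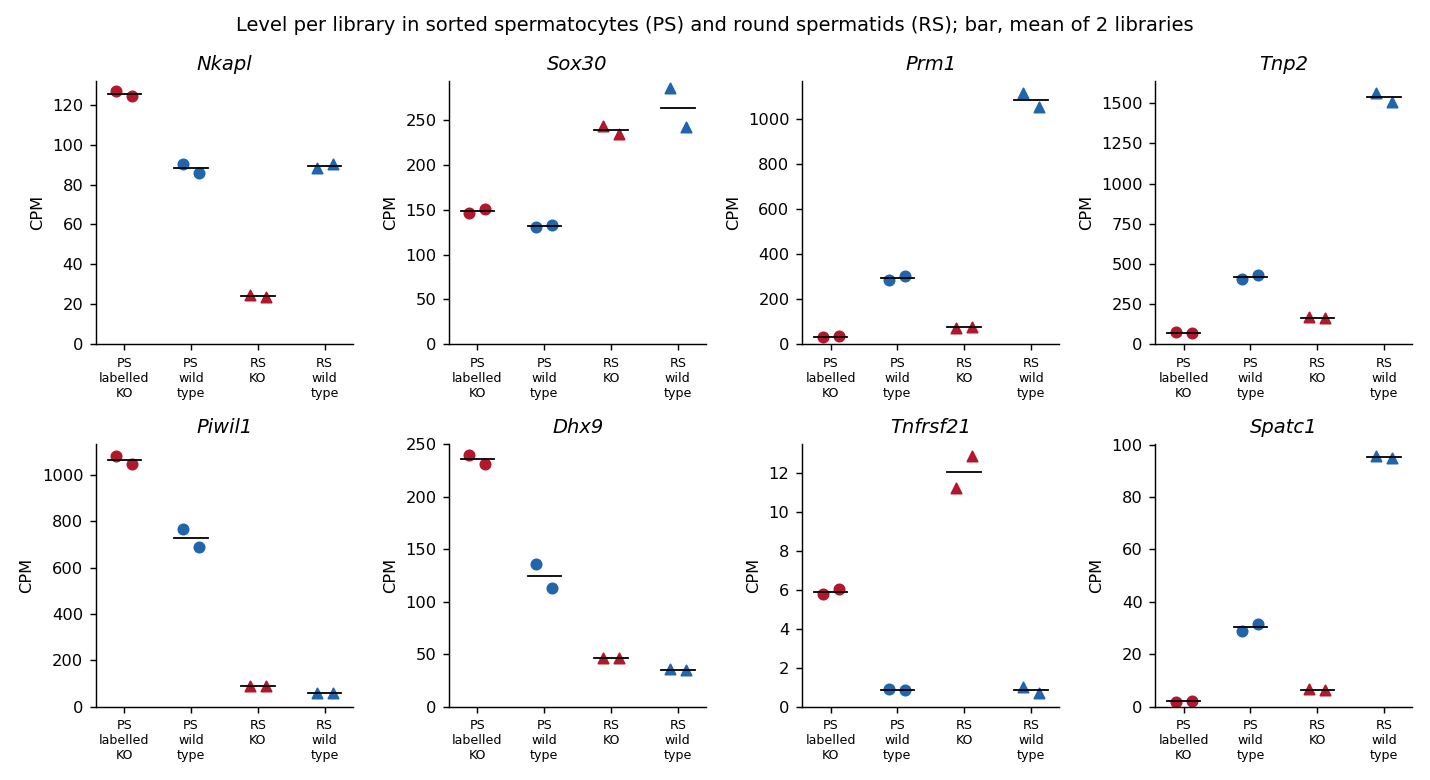
Level in CPM (vertical axes, from 0) of 8 genes in each of the 8 sorted libraries, with groups along the horizontal axis (PS, pachytene spermatocytes; RS, round spermatids; KO, knockout), circles and triangles for libraries and bars for the mean of 2. Nkapl is higher in spermatocytes labelled knockout and lower in knockout spermatids, whereas Prm1, Tnp2 and Spatc1 are lower and Piwil1, Dhx9 and Tnfrsf21 higher in both cell types.

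Differences between the spermatocyte groups reached a large part of the transcriptome, and most were small. Of 15805 genes tested, 5304 were higher in spermatocytes labelled knockout (33.6%) and 4059 were lower (25.7%). At a fold change of at least 2, 451 genes were higher (2.85%) and 1271 were lower (8.04%), so large differences were mostly decreases. The values of the groups did not overlap for 77.9% of genes tested. For groups of 2 libraries that do not differ, the probability of no overlap is 0.333. The split of the small differences moved with several settings. Higher genes made up 56.6% of calls with TMM scaling, and 52.5%, 46.7% and 45.8% with relative log expression, upper quartile and total count scaling. With TMM kept, they made up 48.0% with the spermatocyte libraries fitted alone, 48.2% without a filter on low counts and 48.6% to 48.7% when any 1 round spermatid library was left out. The median log2 fold change of all genes was 0.067 with TMM, 0.028, -0.022 and -0.030 under the other scalings and -0.0060 with the spermatocytes alone, so a log2 fold change of about 0.1 has no firm sign. Counts of list members are given below with TMM scaling, and also with total counts where a count moved by over 1.5 times. With total counts 4073 of the 15805 genes were higher and 4816 lower. List counts with that scaling have this split as their background, not the 33.6% and 25.7% of TMM scaling. Replicates were close, with a biological coefficient of variation of 3.71% over the 8 sorted libraries.

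**Figure D2:**
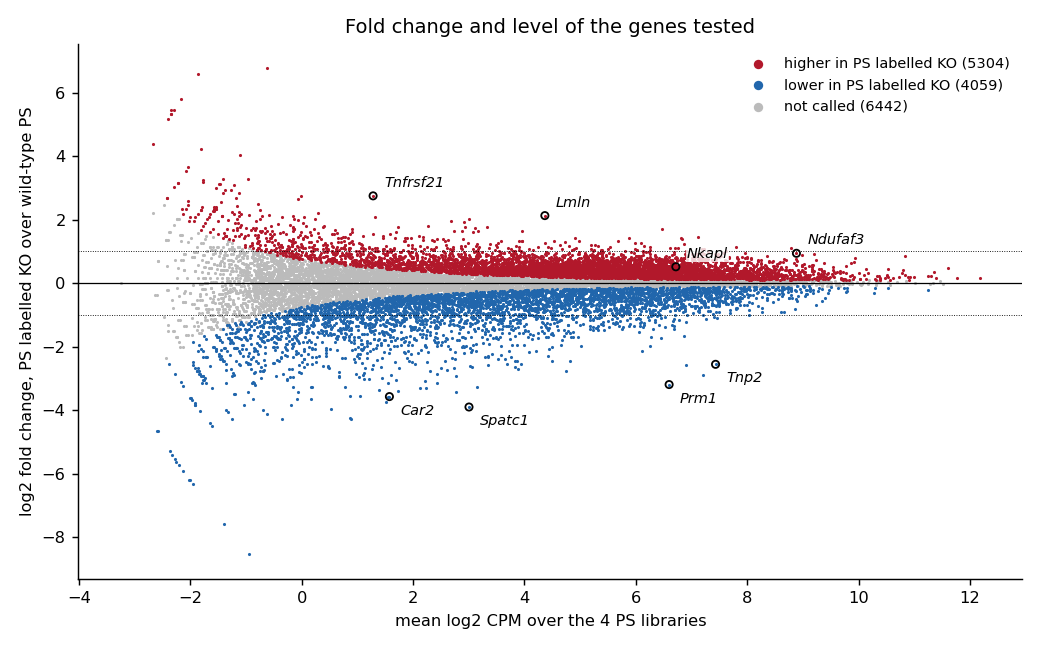
Log2 fold change of spermatocytes labelled knockout over those labelled wild type (vertical axis) against mean log2 CPM over the 4 libraries (horizontal axis), with 1 point per gene tested, coloured by call, and dotted lines at 2-fold. The 5304 higher genes crowd close to 0 at high levels, and the 1271 genes at least 2-fold lower reach further from it; at the far left, fold changes of genes with 0 counts in a group depend on the fitted prior.

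The 8 largest decreases came from genes of mixed function. Spatc1, which encodes speriolin, a centrosomal protein of spermatocytes and sperm, lies on chromosome 15 at 76268089 to 76292572. It measured 1.77 and 2.27 CPM in spermatocytes labelled knockout and 29.0 and 31.7 CPM in those labelled wild type, a log2 fold change of -3.90 ± 0.12 (adjusted p = 1.88e-20). The groups did not overlap, which the choice of the genes in this set required. Car2, a cytosolic carbonic anhydrase, had 0.834 and 0.775 CPM in the libraries labelled knockout and 9.28 and 10.02 CPM in those labelled wild type (-3.57 ± 0.19 on the log2 scale). Glt6d1, of a glycosyltransferase family, had 0.521 and 0.568 CPM in libraries labelled knockout and 5.65 and 7.33 CPM in libraries labelled wild type. Paqr5, a membrane progestin receptor, had 1.72 and 0.982 CPM in libraries labelled knockout and 13.02 and 13.6 CPM in libraries labelled wild type. The log2 fold changes of these last genes were -3.56 and -3.29. Ttc24, Smim23 and Srcin1, an inhibitor of SRC kinase signalling, had log2 fold changes of -3.38, -3.30 and -3.27. Prm1, described with the protamines below, completed the 8 largest decreases among genes with a mean log2 CPM of at least 1.

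The 8 largest increases were smaller in size and likewise came from genes of mixed function. Tnfrsf21, death receptor 6 of the tumour necrosis factor receptor family, lies on chromosome 17 at 43016555 to 43089189. It measured 5.79 and 6.05 CPM in spermatocytes labelled knockout and 0.886 and 0.865 CPM in those labelled wild type, a log2 fold change of 2.75 ± 0.21 (adjusted p = 3.56e-12). Lmln, a leishmanolysin-like metallopeptidase on chromosome 16, had 42.5 and 43.5 CPM in libraries labelled knockout and 11.2 and 8.51 CPM in those labelled wild type (2.13 ± 0.096 on the log2 scale). It was the most abundant of the 8 largest increases. Slc25a32, a carrier of folate and flavin into mitochondria, had 14.9 and 14.1 CPM in libraries labelled knockout and 4.01 and 3.60 CPM in those labelled wild type (1.93 on the log2 scale). Rgs9, which speeds the switching off of G proteins, had 9.33 and 8.22 CPM in libraries labelled knockout and 2.61 and 2.46 CPM in those labelled wild type (log2 fold change 1.79). Espnl, related to the actin-bundling protein espin, had a log2 fold change of 2.08, and Ankrd63, Tmem98 and Tmem150a had 2.01, 1.96 and 1.78. Both libraries labelled knockout were above both labelled wild type in all 8 genes, which their choice required.

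Protamines and transition proteins replace histones in the spermatid nucleus, and their transcripts showed large decreases. Prm1 measured 29.6 and 34.4 CPM in spermatocytes labelled knockout and 284 and 302 CPM in those labelled wild type (-3.20 ± 0.064 on the log2 scale, adjusted p = 2.97e-25). Prm2 measured 54.7 and 53.02 CPM in libraries labelled knockout and 381 and 426 CPM in libraries labelled wild type (log2 fold change -2.91 ± 0.064). Tnp2 had 73.3 and 68.9 CPM in libraries labelled knockout and 408 and 429 CPM in libraries labelled wild type (log2 fold change -2.56 ± 0.053). These 3 genes lie side by side on chromosome 16, and Prm3 lies between Prm2 and Tnp2. Prm3 measured 26.5 and 27.8 CPM in spermatocytes labelled knockout and 27.9 and 30.4 CPM in those labelled wild type, and was not called (log2 fold change -0.10 ± 0.083, adjusted p = 0.29), although it passed as lower with upper quartile and total count scaling, at values down to -0.20. Tnp1, on chromosome 1, fell (log2 fold change -2.58), with 48.4 and 49.4 CPM in libraries labelled knockout and 292 and 295 CPM in those labelled wild type. The promoters of the chromosome 16 cluster are shown because 3 of its genes fell by far more than Prm3. All run on the minus strand, span 250 bases before to 50 bases after the RefSeq start in GRCm38.p6, and are written 5′ to 3′. Capitals mark the SOX core ACAAT or its complement ATTGT. The windows are chr16:10796774-10797073 for Prm1, chr16:10792056-10792355 for Prm2, chr16:10790865-10791164 for Prm3 and chr16:10788606-10788905 for Tnp2.
Prm1: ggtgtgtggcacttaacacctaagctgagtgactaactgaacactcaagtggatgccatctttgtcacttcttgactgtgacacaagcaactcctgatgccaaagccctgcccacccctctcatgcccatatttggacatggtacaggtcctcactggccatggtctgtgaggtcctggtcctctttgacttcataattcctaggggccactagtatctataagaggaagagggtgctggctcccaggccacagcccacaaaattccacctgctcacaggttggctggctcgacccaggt
Prm2: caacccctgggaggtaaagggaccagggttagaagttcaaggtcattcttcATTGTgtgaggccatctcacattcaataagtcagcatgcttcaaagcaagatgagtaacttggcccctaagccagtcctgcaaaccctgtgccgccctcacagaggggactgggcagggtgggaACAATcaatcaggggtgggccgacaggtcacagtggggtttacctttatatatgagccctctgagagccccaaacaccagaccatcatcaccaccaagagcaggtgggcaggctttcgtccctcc
Prm3: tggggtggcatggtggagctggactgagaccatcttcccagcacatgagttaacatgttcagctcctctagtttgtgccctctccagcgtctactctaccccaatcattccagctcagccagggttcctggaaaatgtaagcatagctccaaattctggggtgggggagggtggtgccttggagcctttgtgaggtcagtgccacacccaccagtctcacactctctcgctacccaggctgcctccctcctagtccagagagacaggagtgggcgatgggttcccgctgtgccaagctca
Tnp2: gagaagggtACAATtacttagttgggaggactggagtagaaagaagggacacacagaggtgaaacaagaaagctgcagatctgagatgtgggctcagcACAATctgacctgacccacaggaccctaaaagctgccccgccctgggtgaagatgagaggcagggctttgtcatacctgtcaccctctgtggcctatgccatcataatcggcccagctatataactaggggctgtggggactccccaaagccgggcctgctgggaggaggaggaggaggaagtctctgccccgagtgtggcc
Prm2 and Tnp2 each hold 2 SOX cores in these windows, and Prm1 and Prm3 hold 0. None of the 4 windows holds TGACG, the core of the cAMP response element, or its complement CGTCA.

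Over all promoters, the SOX core was found more often beside genes with large decreases. RefSeq promoters were matched to 12324 tested genes. ACAAT or ATTGT stood in 32.4% of the promoters of genes at least 2-fold lower in spermatocytes labelled knockout (314 of 970), in 28.1% of those at least 2-fold higher (86 of 306) and in 23.3% of all. TGACG or CGTCA stood in 20.6% of the promoters of the 2-fold lower genes, in 24.8% of those of the 2-fold higher genes and in 29.1% of all. The full element TGACGTCA, which contains TGACG and its complement, stood in 1.75%, 2.29% and 3.05% of the same sets. The MYB motif AACNG or its complement CNGTT was near its background, at 78.7%, 80.4% and 78.7%. The RFX motif GTTGCC or its complement GGCAAC stood in 14.7%, 8.82% and 13.8%. These are counts of letters in a short window, and no test was made of them.

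Round spermatid markers were lower as a whole list. All 18 members were tested and all 18 fell in spermatocytes labelled knockout, against 25.7% of all genes, with 7 at least 2-fold lower and a median log2 fold change of -0.65. Elongating spermatid markers fell in 12 of 12 tested, with a median of -0.80. Cabs1, a calcium-binding protein of the sperm tail, had 26.9 and 29.9 CPM in libraries labelled knockout and 78.1 and 70.5 CPM in those labelled wild type (-1.39 on the log2 scale). Gsg1, a germ cell protein, had 219 and 230.4 CPM in libraries labelled knockout and 415 and 432 CPM in those labelled wild type (log2 fold change -0.92). The smallest changes of these lists were those of Acr, the protease acrosin (log2 fold change -0.13), Tekt5, a tektin of the tail (-0.22), and Odf2, of the outer dense fibres (-0.23). Summed over the 18 round spermatid markers, the level was 1397 and 1379 CPM in spermatocytes labelled knockout and 3057 and 3214 CPM in those labelled wild type. In sorted round spermatids the same sum was 3713 and 3642 CPM in knockout libraries and 9960 and 9592 CPM in wild-type libraries. With libraries matched by label, the spermatocyte sum was 37.7% of the spermatid sum in those labelled knockout and 32.1% in those labelled wild type. Since Nkapl ran against the spermatocyte labels, the shares with labels crossed are given too. The sum in spermatocytes labelled knockout was 14.2% of that in wild-type spermatids, and the sum in spermatocytes labelled wild type was 85.3% of that in knockout spermatids. For elongating spermatid markers the shares were 47.5% and 42.0% by label and 30.0% and 66.5% crossed. Transcripts made in spermatocytes and transcripts from spermatids in the sorted fraction cannot be told apart here, nor can fewer such cells and less RNA per cell.

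**Figure D3:**
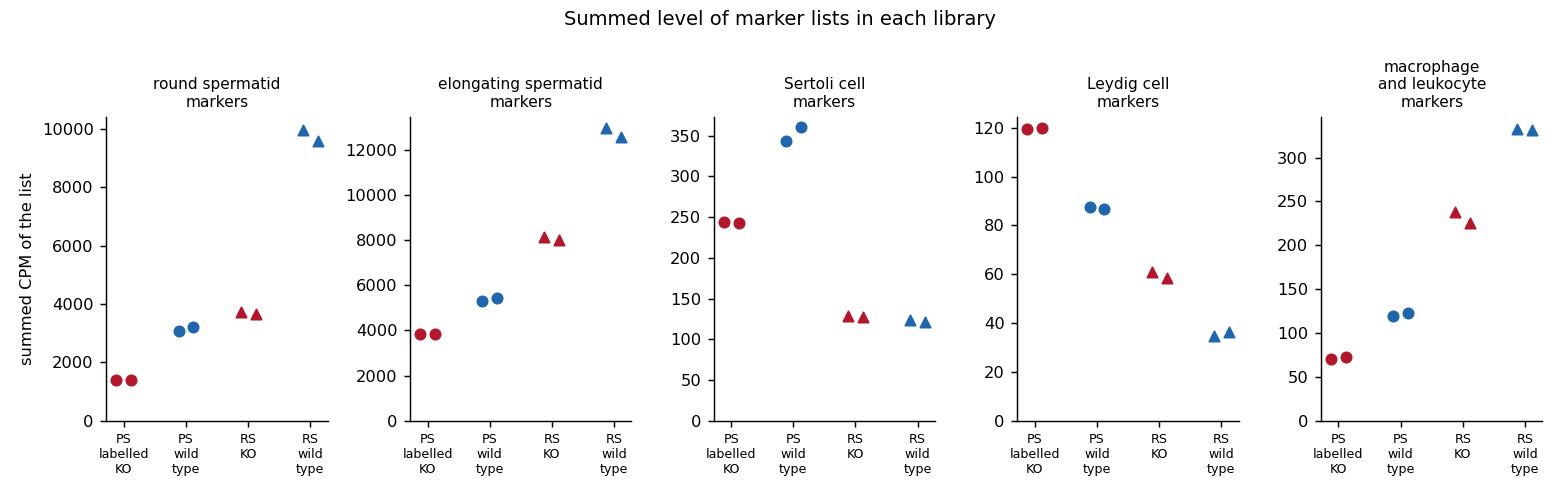
Summed CPM (vertical axes, from 0) of 5 marker lists in each of the 8 sorted libraries, with groups along the horizontal axis as for the single genes and 1 point per library. Spermatid and Sertoli cell sums are lower and the Leydig cell sum higher in spermatocytes labelled knockout than in those labelled wild type, with no overlap; between the spermatid groups the Sertoli sums lie close together.

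Genes of the acrosome, the secretory cap of the sperm head, were mostly lower. Of 45 acrosome genes tested, 31 fell (68.9%, against 25.7% of all genes) and 5 rose (11.1%, against 33.6%) in spermatocytes labelled knockout, with a median log2 fold change of -0.44. With total counts 35 fell and 1 rose. Actrt2, an actin-related protein of the sperm head, had 53.3 and 55.1 CPM in libraries labelled knockout and 129.9 and 141 CPM in those labelled wild type (-1.32 on the log2 scale). Ccin, the head protein calicin, had 37.6 and 38.2 CPM in libraries labelled knockout and 91.9 and 93.1 CPM in those labelled wild type (log2 fold change -1.29). Among the 5 that rose, Gopc, a Golgi protein needed for acrosome formation, stood out at 0.79, with 82.0 and 81.8 CPM in libraries labelled knockout and 49.6 and 45.1 CPM in those labelled wild type. The acrosome genes Acrbp (log2 fold change -0.026), Zpbp (-0.015) and Spaca4 (-0.14) were not called with TMM scaling, and Spaca4 passed as lower under 10 of 19 alternative settings and Acrbp under 2.

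The sperm tail list was mixed. Of 60 tail and axoneme genes tested, 29 fell (48.3%, against 25.7% of all genes) and 16 rose (26.7%, against 33.6%), with a median of -0.14. With total counts 35 fell and 10 rose. Genes of the fibrous sheath and outer dense fibres were among those that fell. Akap4, the main fibrous sheath protein, had 289.7 and 285 CPM in spermatocytes labelled knockout and 448 and 413 CPM in those labelled wild type (-0.58 on the log2 scale). Odf1, of the outer dense fibres, had 171 and 175 CPM in libraries labelled knockout and 288 and 305 CPM in libraries labelled wild type (log2 fold change -0.78). Spata18, a mitochondrial protein, fell (log2 fold change -1.02), as did Odf3b, a rare transcript (-3.27). Axonemal genes were among those that rose, such as Ccdc39, a ruler of the axonemal repeat (log2 fold change 0.59), Rsph1, of the radial spokes (0.42), and Dnah7a, an inner arm dynein (0.40). Of 35 genes of intraflagellar transport, 18 rose and 9 fell with TMM scaling. With total counts 9 rose and 13 fell, a turn that the split of all genes also made. Ift122 (log2 fold change -0.77) and Kif17, a kinesin also found in germ cell granules (-0.67), fell the most, and Ttc30a1 (0.94) rose the most.

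Ion transport genes of sperm fell in 12 of 24 tested, against 25.7% of all genes, and rose in 8 (33.3%), near the 33.6% of all genes. Atp1a4, the sodium pump subunit of sperm, had 114 and 119.8 CPM in spermatocytes labelled knockout and 251 and 241 CPM in those labelled wild type (-1.07 on the log2 scale). Slc36a3, of an amino acid transporter family, fell (log2 fold change -2.02). The subunits of CatSper, the calcium channel of the sperm tail, did not move as 1 unit. The pore subunits Catsper1 (log2 fold change -0.94), Catsper2 (-0.33), Catsper3 (-0.97) and Catsper4 (-0.39) fell. The auxiliary subunits Catsperb (0.24), Catsperd (0.45) and Catsperg1 (0.41) rose in spermatocytes labelled knockout, and had log2 fold changes of -0.26, -0.17 and -0.13 in round spermatids. The CatSper genes, and the tail and acrosome members picked out by their size, were chosen after their values were seen.

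Testis kinases fell in 12 (41.4%) and rose in 8 (27.6%) of 29 tested. Tssk6, a kinase of condensing spermatids, had 12.5 and 11.1 CPM in spermatocytes labelled knockout and 35.0 and 42.0 CPM in those labelled wild type (-1.70 on the log2 scale), and Tssk1 to Tssk5 also fell, with log2 fold changes of -0.79 to -0.43. Mark2, a polarity kinase, rose, with 270.0 and 264 CPM in libraries labelled knockout and 138 and 137 CPM in those labelled wild type (log2 fold change 0.96). Chaperone genes rose in 12 and fell in 12 of 33, 36.4% each, against 33.6% and 25.7% of all genes, and rose in 7 and fell in 15 with total counts. Hspa1l, a chaperone of spermatids (log2 fold change -1.44), and Dnajb8 (-2.07) fell, whereas Hspa2, the chaperone of pachytene spermatocytes, had 2119 and 2029.6 CPM in libraries labelled knockout and 1828 and 1767 CPM in those labelled wild type (0.21). Glycolysis genes fell in 15 (48.4%) and rose in 6 (19.4%) of 31. Gpi1, glucose phosphate isomerase (log2 fold change -1.22), Pkm, pyruvate kinase (-1.11), and the sperm-specific Gapdhs (-0.84) fell. Slc2a3, a glucose transporter, went the other way, with 3718 and 3668 CPM in libraries labelled knockout and 2679 and 2604 CPM in those labelled wild type (log2 fold change 0.48).

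Several testis gene families also held more decreases than increases, whereas 25.7% of all genes fell and 33.6% rose. All 5 tested Iqcf genes fell, with a median log2 fold change of -1.04; Iqcf1 had 7.56 and 9.66 CPM in spermatocytes labelled knockout and 25.5 and 25.7 CPM in those labelled wild type. Of 23 Prss serine protease genes tested, 11 fell (47.8%) and 5 rose (21.7%). Prss55, needed for sperm migration in the mouse, had 9.59 and 11.2 CPM in libraries labelled knockout and 34.5 and 34.4 CPM in libraries labelled wild type (-1.73 on the log2 scale). Of 31 Adam genes, 15 fell (48.4%) and 7 rose (22.6%), and 16 and 4 did with total counts. Adam29 (log2 fold change -1.43) and Adam1a, which acts in sperm protein maturation (-0.86), fell, while Adam2 (0.38), whose product is part of the sperm surface complex, rose. Members of these families resemble each other in sequence, and how the counting split shared reads is not given in the sources used here. In the wider list of spermatid chromatin genes, 13 fell (48.1%) and 7 rose (25.9%) of 27 tested, and 15 and 4 did with total counts; H2afb1, a histone variant gene of the X chromosome, fell by 1.94 on the log2 scale.

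**Figure D4:**
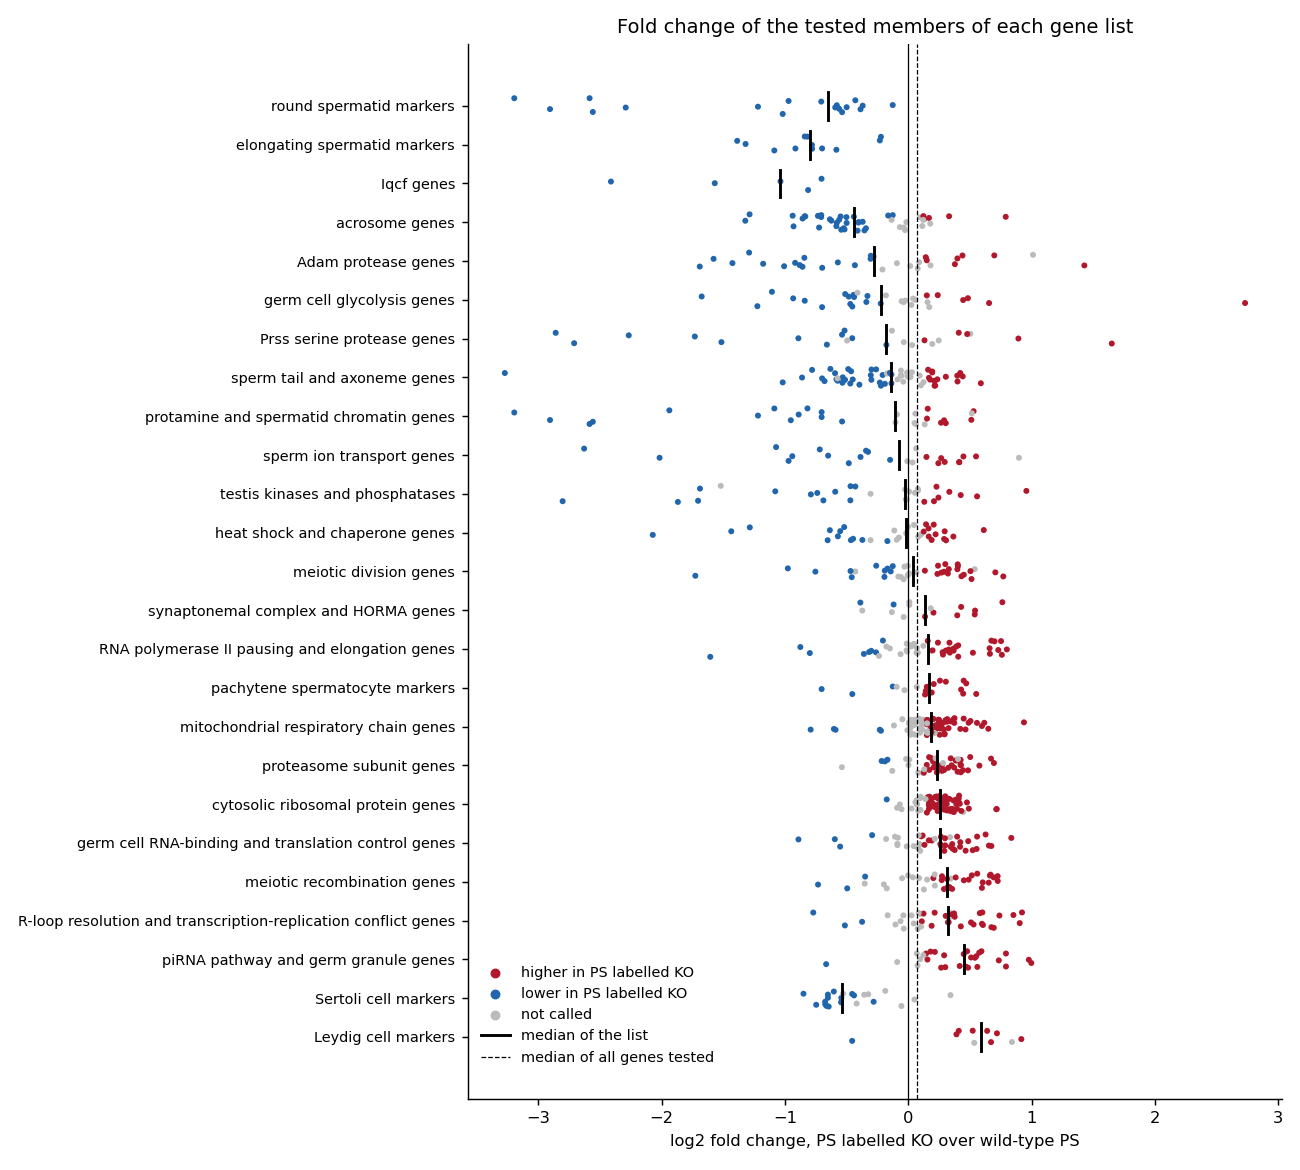
Log2 fold change of spermatocytes labelled knockout over those labelled wild type (horizontal axis) for the tested members of 25 gene lists (vertical axis), 1 point per gene coloured by call, with a bar at each list's median and a dashed line at the median of all genes, 0.067. Spermatid marker, Iqcf and acrosome genes lie to the left, and piRNA, R-loop, recombination and ribosomal protein genes to the right, mostly within 1 unit of 0.

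Genes of meiotic prophase were modestly higher. Of 19 pachytene markers, 13 rose (68.4%, against 33.6% of all genes) and 3 fell (15.8%, against 25.7%) with TMM scaling. Their median log2 fold change was 0.17, and 8 rose and 4 fell with total counts. Piwil1, the PIWI protein of pachytene piRNAs, had 1083 and 1048 CPM in spermatocytes labelled knockout and 765 and 689 CPM in those labelled wild type (0.55 ± 0.047 on the log2 scale, adjusted p = 4.37e-11). Pgk2, the germ cell phosphoglycerate kinase, had 368 and 365 CPM in libraries labelled knockout and 504 and 499.6 CPM in those labelled wild type (log2 fold change -0.45). Mybl1, the transcription factor that drives pachytene piRNA genes, had a log2 fold change of 0.45. The pachytene marker list did not separate the sorted cell types by sum. It summed to 17202 and 16898 CPM in spermatocytes labelled knockout and 14953 and 15259 CPM in those labelled wild type, which was 98.8% and 91.7% of its sum in spermatids of the same label. The crossed shares were 103.5% for spermatocytes labelled knockout over wild-type spermatids and 87.5% for spermatocytes labelled wild type over knockout spermatids. Single members did separate them, since Piwil1 measured 90.8 and 89.8 CPM in knockout spermatids and 59.9 and 61.0 CPM in wild-type spermatids.

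Earlier stages were also represented. Leptotene and zygotene markers rose in 8 and fell in 3 of 16 tested with TMM scaling, and in 6 and 5 with total counts. Spermatogonial and preleptotene markers rose in 8 and fell in 0 of 13, against 33.6% and 25.7% of all genes, but rose in only 3 with total counts, with upper quartile scaling and with the spermatocytes alone. Meioc, which keeps germ cells in meiotic prophase, had 280.3 and 266 CPM in spermatocytes labelled knockout and 165 and 141 CPM in those labelled wild type (0.84 on the log2 scale). Rec8, the meiotic cohesin subunit, went the other way, with 40.5 and 40.9 CPM in libraries labelled knockout and 73.9 and 81.5 CPM in those labelled wild type (log2 fold change -0.93). Of undifferentiated spermatogonia markers, 3 rose, among them Id4 (log2 fold change 0.79), and 2 fell, among them Etv5 (-0.99), of 13. Tex101, a germ cell surface protein, rose by 0.45 on the log2 scale and Uhrf1, which maintains DNA methylation, by 0.32.

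The synaptonemal complex holds paired chromosomes together. Its genes rose in 7 (46.7%, against 33.6% of all genes) and fell in 2 (13.3%, against 25.7%) of 15 tested. Sycp2, of its lateral elements, had 616 and 606 CPM in spermatocytes labelled knockout and 392 and 328 CPM in those labelled wild type (0.76 on the log2 scale). Hormad1, which monitors pairing, rose by 0.54 on the log2 scale and Sycp3 by 0.43, whereas the central element gene Syce2 fell by 0.39. Recombination genes rose in 22 (59.5%, against 33.6% of all genes) and fell in 3 of 37 tested, with a median of 0.31, and rose in 19 and fell in 6 with total counts. Mdc1, which spreads the silencing signal over the sex chromosomes, had 503 and 501 CPM in libraries labelled knockout and 344 and 288 CPM in those labelled wild type (log2 fold change 0.67). Brca2 (log2 fold change 0.60) and Mlh3 (0.65), which act in strand exchange and crossover formation, rose, and Msh4 (-0.73), also a crossover gene, fell. Of 17 cohesin genes, 7 rose (41.2%) and 4 fell (23.5%, near the 25.7% of all genes). This turned to 4 and 5 with total counts, as the split of all genes also turned. Sgo2a, the protector of centromeric cohesin, rose by 0.63 on the log2 scale and Stag3, a meiotic cohesin subunit, fell by 0.40.

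Genes of the meiotic divisions went both ways. Of 38 tested, 17 rose (44.7%, against 33.6% of all genes) and 11 fell (28.9%, near the 25.7% of all genes), and 14 rose and 14 fell with total counts. The median of 0.037 with TMM scaling turned to -0.060 with total counts. Cdc25c, a phosphatase that activates entry into division, had 5.89 and 5.84 CPM in spermatocytes labelled knockout and 19.9 and 18.98 CPM in those labelled wild type (-1.73 on the log2 scale). Fbxo43, an inhibitor of the anaphase-promoting complex, had 78.1 and 78.7 CPM in libraries labelled knockout and 46.5 and 45.4 CPM in those labelled wild type (log2 fold change 0.77). Spindle genes were found on both sides, with Spc25 (log2 fold change -0.98), Cenpe (-0.75) and Plk1 (-0.47) lower and Knl1 (0.71), Cdca8 (0.51) and Bub3 (0.50) higher.

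The piRNA pathway had the highest share of rises among the germ cell lists, apart from ribosomal proteins. Small RNAs of this pathway silence transposons and shape spermatid transcripts in the mouse. Of 29 genes tested, 23 rose and 1 fell in spermatocytes labelled knockout, against 33.6% and 25.7% of all genes, with a median log2 fold change of 0.45. Pld6, an enzyme of the mitochondrial surface in piRNA processing, had 224 and 218 CPM in libraries labelled knockout and 112 and 113 CPM in those labelled wild type (log2 fold change 0.98 ± 0.052). Tdrd5, a tudor domain protein of germ granules, had 322 and 334 CPM in libraries labelled knockout and 194 and 185 CPM in those labelled wild type (log2 fold change 0.79 ± 0.052). Exd1 (log2 fold change 0.998), Stk31 (0.79), Gpat2 (0.73) and Tdrd1 (0.58) rose as well, and Mael (0.069) and Rnf17 (0.12) were not called. With total counts 18 rose and 2 fell. In round spermatids 21 of the 29 rose and 3 fell, where 29% of all genes rose and 31% fell.

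Genes of germ cell RNA binding and translation control rose in 27 (60%, against 33.6% of all genes) of 45 tested. They fell in 4 (8.89%, against 25.7%), and 21 rose and 9 fell with total counts. Samd4, a translational repressor, fell, with 104 and 99.8 CPM in spermatocytes labelled knockout and 188 and 190.3 CPM in those labelled wild type (-0.89 on the log2 scale). Ptbp2, a splicing regulator of germ cells, rose by 0.65 on the log2 scale, Boll, a meiotic RNA-binding protein, by 0.49 and Ythdf2, a reader of methylated RNA, by 0.67.

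R-loops are hybrids of nascent RNA with DNA, and genes that resolve them or the conflicts they cause rose in 23 (59.0%, against 33.6% of all genes) and fell in 3 of 39 tested, with a median of 0.32. With total counts 19 rose and 6 fell. Dhx9, a helicase that unwinds RNA and its hybrids with DNA, had 240.1 and 231 CPM in spermatocytes labelled knockout and 136 and 113 CPM in those labelled wild type (log2 fold change 0.92 ± 0.061, adjusted p = 1.78e-13). Both libraries labelled knockout were above both labelled wild type. Top1, the topoisomerase that relaxes DNA during transcription, rose by 0.60 on the log2 scale, Rnaseh1, which cuts the RNA of the hybrid, by 0.61, and the splicing factor Srsf1 by 0.74. The nuclease genes Ercc5 (log2 fold change -0.77) and Mus81 (-0.51) fell, and Rnaseh2a was not called, at 596 and 582 CPM in libraries labelled knockout and 547 and 610.0 CPM in those labelled wild type (0.026, adjusted p = 0.65). In round spermatids 15 of the 39 rose and 9 fell, where 29% of all genes rose and 31% fell. The median log2 fold change of the list was 0.059 there.

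RNA polymerase II pausing and elongation genes rose in 23 (48.9%, against 33.6% of all genes) of 47 tested. They fell in 8 (17.0%, against 25.7%). With total counts 19 rose and 11 fell. Polr2a, the large subunit of the polymerase, had 376 and 333 CPM in spermatocytes labelled knockout and 224 and 183 CPM in those labelled wild type (0.80 on the log2 scale). The elongation factors Eloa and Supt6 rose by 0.76 and 0.70 on the log2 scale. Of the negative elongation factor, which holds the polymerase at its pause, Nelfa (log2 fold change 0.52), Nelfb (0.41) and Nelfcd (0.66) rose and Nelfe (-0.32) fell. Cdk9, the kinase that releases the pause, rose by 0.39 on the log2 scale, and Supt5, of the DSIF pausing factor, was not called (0.078). Ell2, of the super elongation complex, fell by 0.88 on the log2 scale.

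Transcription regulators of meiotic and haploid germ cells moved in both directions. Of the 38 tested, with Nkapl among them, 21 rose (55.3%, against 33.6% of all genes) and 7 fell (18.4%, against 25.7%) with TMM scaling. With total counts 14 rose and 10 fell. Fhl5, the activator of CREM, had 35.6 and 34.0 CPM in spermatocytes labelled knockout and 76.7 and 82.3 CPM in those labelled wild type (-1.19 on the log2 scale). Crem itself, a regulator of spermatid genes, fell by 0.27 on the log2 scale, and Rfx1, of the regulatory factor X family, fell by 0.77. Rfx2, required in mice for spermatid development, was not called, at 522 and 526 CPM in libraries labelled knockout and 506 and 526 CPM in those labelled wild type (adjusted p = 0.70). Tcfl5 (log2 fold change 0.26) and Pou5f2 (0.69) rose. Zfp zinc finger genes rose in 147 (43.4%) and fell in 54 (15.9%) of 339 tested. Zfp346 rose by 0.90 on the log2 scale and Zfp57, which protects imprinted methylation in embryos, fell by 1.68.

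Housekeeping lists held more rises than falls, where 33.6% of all genes rose and 25.7% fell. Cytosolic ribosomal protein genes rose in 67 and fell in 1 of 82 tested, with a median log2 fold change of 0.26, and rose in 50 and fell in 2 with total counts. Rpl5 had 157 and 172 CPM in spermatocytes labelled knockout and 116 and 121 CPM in those labelled wild type (0.48 on the log2 scale), and Rpl14 had a log2 fold change of 0.49. Rps4l, a testis copy of a small subunit gene, was the 1 that fell (log2 fold change -0.17), a call lost when replicate 2 of either spermatocyte group was left out. Proteasome genes rose in 32 and fell in 3 of 46; the spermatocyte subunit Psma8 rose by 0.42 on the log2 scale and the assembly factor Psmg1 by 0.67. Respiratory chain genes rose in 50 and fell in 5 of 89, with log2 fold changes from -0.79 to 0.94, and the count of rises was 25 with total counts. Ndufaf3, an assembly factor of complex I, had the largest change among them, with 658 and 652 CPM in libraries labelled knockout and 314 and 369.9 CPM in those labelled wild type (log2 fold change 0.94). In round spermatids the medians of the ribosomal protein and respiratory chain lists were 0.04 and 0.02.

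Stress and signalling lists held both rises and falls. Genes of the p53 response and apoptosis rose in 14 (42.4%, against 33.6% of all genes) and fell in 3 of 33 tested. Of the rises, 3 were at least 2-fold. Ddit3, of the integrated stress response, had 113 and 111 CPM in spermatocytes labelled knockout and 72.5 and 82.1 CPM in those labelled wild type (0.53 on the log2 scale), and Casp9, an initiator caspase, had a log2 fold change of 0.75. Cdkn1a, the classic p53 target, was not called, at 2.24 and 1.19 CPM in libraries labelled knockout and 1.59 and 1.73 CPM in those labelled wild type. Notch pathway genes were near the background, with 7 rises and 7 falls of 27 (25.9% each, against 33.6% and 25.7% of all genes), and 4 and 8 with total counts; the protease gene Adam17 rose by 0.70 on the log2 scale and Numb, a Notch antagonist, by 0.53. Of 15 replication-dependent histone genes tested of 59 in the list, 2 rose, among them Hist2h2be (log2 fold change 0.99), and Hist1h2bp (-0.46) fell. Sex-linked multicopy and postmeiotic genes rose in 4 and fell in 4 of 26, and in 3 and 7 with total counts. The ribosomal RNA gene Rn45s took 0.0391% ± 0.00116 of counts in libraries labelled knockout and 0.0328% ± 0.000741 in those labelled wild type (SD, n = 2 each). Mitochondrially encoded genes were not analysed here.

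Markers of somatic testis cells also differed between the groups, where 33.6% of all genes rose and 25.7% fell. Sertoli cell markers fell in 14 and rose in 0 of 22 tested, with a median log2 fold change of -0.54, and summed to 244 and 243 CPM in spermatocytes labelled knockout and 343 and 361 CPM in those labelled wild type. Clu, a secreted chaperone of Sertoli cells, had 119 and 119 CPM in libraries labelled knockout and 168 and 179 CPM in those labelled wild type, the most abundant member of the list. Leydig cell markers rose in 7 and fell in 1 of 10, and summed to 120 and 120 CPM in libraries labelled knockout and 87.7 and 86.7 CPM in those labelled wild type. Hsd3b1, a steroidogenic enzyme, had 9.65 and 11.2 CPM in libraries labelled knockout and 5.46 and 5.55 CPM in those labelled wild type (0.92 on the log2 scale), and Cyp11a1, another, rose by 0.52. Macrophage and leukocyte markers summed to 70.0 and 72.3 CPM in libraries labelled knockout and 119 and 123 CPM in those labelled wild type, and most of that was Aif1, which fell by 0.94 on the log2 scale. Of the 14, 5 low genes rose, such as Cd74 (log2 fold change 2.03), and 3 fell. In round spermatids 12 of the 14 rose (29% of all genes did), and Aif1 fell by 0.83 on the log2 scale. The sum there was 238 and 225 CPM in knockout libraries and 333 and 331 CPM in wild-type libraries. Of 9 peritubular myoid markers, Dcn rose by 0.82 on the log2 scale and Actg2 fell by 1.34, and 1 rose and 2 fell with total counts. Of 8 endothelial markers, Vwf (-0.96) and Flt1 (-1.06) fell. In knockout spermatids Actg2 (-1.30), Vwf (-1.10) and Flt1 (-1.32) fell too, and Dcn rose (1.27). Aif1, Actg2, Vwf, Flt1 and Dcn were each higher in wild-type spermatids than in spermatocytes labelled wild type. Of 8 red blood cell markers only Alas2 was tested, and it fell by 1.69 on the log2 scale, with 4 of the list at 0 in all spermatocyte libraries. Of 16 epididymal markers only Rnase10 was tested (log2 fold change 0.69), with 6 at 0. The part of these cell types in the germ cell differences was not tested.

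The difference between spermatocytes as labelled ran largely with that between knockout and wild-type round spermatids, which shares none of its libraries. The labels do not say whether both cell types came from the same animals. Round spermatid markers in spermatocytes summed to 37.7% (labelled knockout) and 32.1% (labelled wild type) of their spermatid sums. The part of spermatid transcripts in the shared changes was not tested. Among genes tested, 4582 were higher (29%) and 4903 lower (31%) in knockout spermatids. Of the 1271 genes at least 2-fold lower in spermatocytes labelled knockout, 1179 (92.8%) were lower in knockout spermatids and 1 was higher. Of the 451 genes at least 2-fold higher, 328 (72.7%) were higher in knockout spermatids and 0 were lower. The smaller changes were shared less, with 79.7% of all 4059 lower genes and 56.1% of all 5304 higher genes called the same way. Read from the spermatids, 65.9% of the lower and 65.0% of the higher genes were called the same way in spermatocytes. Across genes, which are not independent replicates, the fold changes correlated at r = 0.755. The genes that went opposite ways were 347 higher in spermatocytes labelled knockout and lower in knockout spermatids, Nkapl among them, and 93 the reverse.

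**Figure D5:**
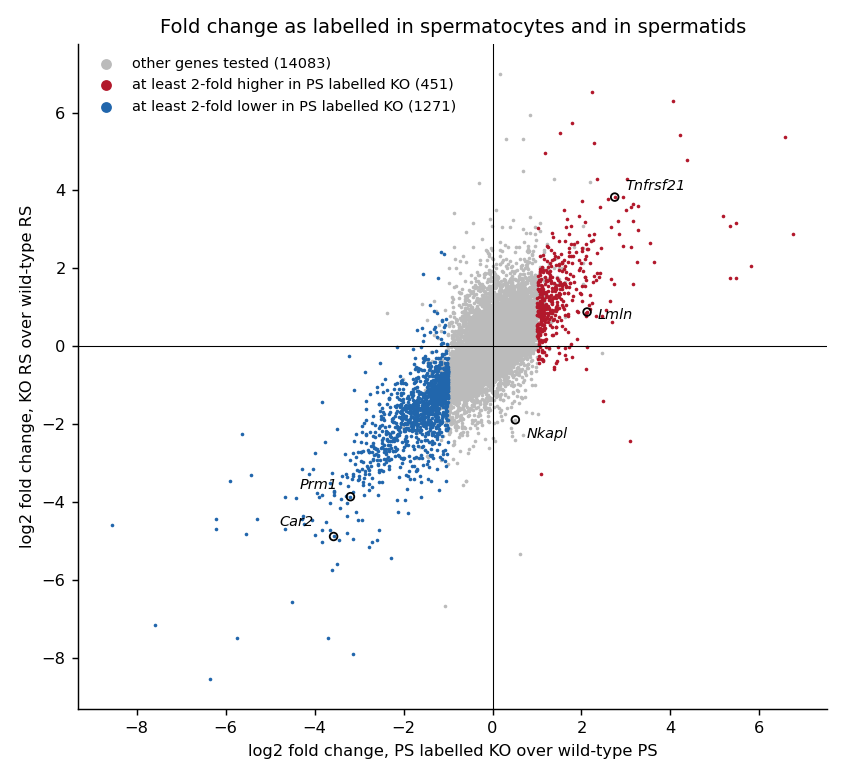
Log2 fold change of knockout over wild type in round spermatids (vertical axis) against that of spermatocytes labelled knockout over those labelled wild type (horizontal axis), with 1 point per gene tested and colours for genes at least 2-fold changed in spermatocytes. Most coloured points lie in the lower left and upper right, and Nkapl lies in the lower right.

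The size of the effect differed between the cell types for 4025 genes (25.5%). The spermatocyte effect was the higher for 2599 and the lower for 1426 of them, a split that turned to 995 and 3725 with total counts. The count of 2599 dropped to 1417 to 1614 when any 1 spermatid library was left out, and the count of 1426 to 933 and 941 without either spermatocyte library labelled knockout. Tnfrsf21 rose less in spermatocytes than in spermatids (difference of log2 fold changes -1.08 ± 0.36, adjusted p = 0.028), with 11.2 and 12.9 CPM in knockout spermatids and 0.992 and 0.694 CPM in wild-type spermatids. Lmln rose more in spermatocytes (difference 1.25 ± 0.21, adjusted p = 5.71e-05), with 5.90 and 6.94 CPM in knockout spermatids and 3.44 and 3.53 CPM in wild-type spermatids. Prm1 fell less in spermatocytes (difference 0.67 ± 0.086, adjusted p = 1.35e-06), with 72.6 and 76.6 CPM in knockout spermatids and 1115 and 1055 CPM in wild-type spermatids. Sertoli cell markers are a list with unlike medians, at -0.54 in spermatocytes and 0.17 in spermatids.

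Genes that changed were unevenly spread over classes of genes. Of 621 X-linked genes tested, 12.1% rose and 19.2% fell in spermatocytes labelled knockout, against 34.5% and 26.0% of 15002 autosomal genes. Their medians were -0.043 and 0.071, and X-linked genes had a median of 0.34 in knockout spermatids. X-linked and autosomal genes were not matched for level. In the lowest of 5 groups by expression, 11.2% of genes rose and 20.7% fell. Long noncoding genes fell more often. Of 510 genes annotated as lincRNA, 22.2% were at least 2-fold lower, as were 19.12% of 319 antisense genes, against 7.20% of 14397 protein-coding genes. No source used here says whether the counting used strand, so reads of an antisense gene and its partner cannot be told apart. Genes in the 1 of 5 equal groups with the shortest exon length were at least 2-fold lower in 13.6% of cases and those in the group with the longest in 6.10%. Genes in the group with the longest gene bodies, also of 5, rose in 26.5% and fell in 30.7%, the only group by gene length in which more fell than rose. By GC content, the share that rose was 38.3% in the lowest of 5 groups and 27.6% in the highest. The share of rises varied most with level, at 11.2% in the lowest of 5 groups by expression and 52.4% in the highest, where small changes are also easier to call.

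A few genes were read in only 1 of the groups. Among called genes, 13 had 0 counts in both spermatocyte libraries labelled knockout and 8 had 0 in both labelled wild type. Grin2b, a glutamate receptor subunit, had 0 counts in both libraries labelled knockout and 57 and 50 counts in those labelled wild type, at least 31.7-fold lower against a floor of 3 counts over the group. Cyp2a12, a cytochrome P450, had 0 counts in both libraries labelled knockout and 11 and 12 in those labelled wild type, at least 6.81-fold lower. Pgr15l, a G protein-coupled receptor, had 10 and 14 counts in libraries labelled knockout and 0 in both labelled wild type, at least 9.01-fold higher. These genes were chosen after their values were seen, and the floors cover counting error only.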

How the data were processed

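Each sorted library has a deposited table of unscaled counts for 24682 gene symbols. The submitters' processing notes name HISAT2 2.1.0, HTSeq, DESeq2 and mm10, without the role of each, and neither the annotation nor the strand setting of the counting was given in the sources used here. Total RNA was taken up in TRIzol and sequenced from stranded TruSeq libraries, per the labels' protocols. HTSeq's summary lines were kept out of totals and tests, at 18.8% to 23.5% of lines in spermatocytes. The 18 testis files of the series were not used here.

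The 8 sorted libraries were fitted together with edgeR 4.0.16 (R 4.3.3). Genes were kept with filterByExpr by group and scaled by TMM, which left 15805 genes. The contrast of spermatocytes labelled knockout over those labelled wild type was tested with the two-sided quasi-likelihood F test at a Benjamini-Hochberg adjusted p under 0.05 over all genes tested. A standard error is the size of the log2 fold change over the square root of its F. CPM use the TMM-scaled totals and are not divided by gene length. No pair of replicates agreed within sampling noise (chi-square per degree of freedom 1.39 in spermatocytes labelled knockout and 4.74 in those labelled wild type), so each library counts once. On simulated counts for this comparison (15626 genes fitted), 76.1% of genes changed 1.5-fold, 92.5% changed 2-fold and 98.5% changed 4-fold were recovered, and 6.81% of calls were unchanged genes. Only 67, 67 and 66 genes were changed by these folds, in random directions, with 1 spread per gene shared by all groups. Far more genes differ in the data, mostly downward when large, so the share of false calls does not carry over to them.

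Members, 43 gene lists and tests were chosen with earlier results of these data known, and lists are described by counts and medians beside all genes, with no set test. Genes named are Nkapl and Sox30, the 8 largest rises and 8 largest falls among called genes whose groups did not overlap and whose mean log2 CPM reached 1, passing over provisional symbols, and up to 2 called members of each list; other genes named were chosen after their values were seen, and some genes that the rule names are not reported here. Positions and classes come from GENCODE M21 (GRCm38, the build also called mm10), in which 24110 symbols matched directly and 138 by synonym. Promoters are RefSeq's, in GRCm38.p6. Alternatives were DESeq2 1.42.0, limma 3.58.1 voom, other scalings and filters, a replicate block, thinning to the smallest library, the spermatocytes alone and leaving out each library.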

Additional observations from a re-analysis of the deposited data

Results flagged for a closer look

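Only Nkapl, Sox30, the 8 leading increases and the 8 leading decreases were looked at here. For 8 of these genes the effect of the knockout label differed between spermatocytes and round spermatids. The difference itself was tested, with adjusted p-values from edgeR, and 25.5% of all genes tested passed the same test. The difference is the log2 fold change in spermatocytes minus that in spermatids. Nkapl had a difference of 2.40 (adjusted p = 4.93e-18), with a log2 fold change of 0.51 in spermatocytes and -1.89 in spermatids. Sox30 had a difference of 0.32 (adjusted p = 0.0056), with 0.17 and -0.14 in the same order. Among the leading increases, Tnfrsf21 differed by -1.08 (adjusted p = 0.028), Lmln by 1.25 (adjusted p = 5.71e-05) and Slc25a32 by 1.04 (adjusted p = 0.013). Of the leading decreases, Car2 differed by 1.31 (adjusted p = 0.0047), Srcin1 by 0.76 (adjusted p = 0.0029) and Prm1 by 0.67 (adjusted p = 1.35e-06), each with the smaller fall in spermatocytes. Groups of 2 libraries are too small for a search for single outlying libraries.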

How the results depend on the processing

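With 2 libraries per group, the fit has 4 residual degrees of freedom, and its p-values borrow spread across genes to a median of 28.6 degrees of freedom. The sign of small changes moved with scaling. The counts of genes higher and lower stayed within 1.5 times of 5304 and 4059 in spermatocytes labelled knockout under every alternative run, at 3620 to 5322 higher and 3362 to 4816 lower. Genes at least 2-fold higher numbered 272 with DESeq2, against 451. Genes whose spermatocyte effect exceeded the spermatid effect numbered 2599, against 1125 with upper quartile scaling, 995 with total counts (added after the data were seen), 1681 without a filter on low counts and 1214 with DESeq2, and ranged over 1417 to 2977 when single libraries were left out, with 1461 and 1417 without knockout spermatid replicates 1 and 2 and 1463 and 1614 without wild-type spermatid replicates 1 and 2. Genes with the spermatocyte effect below the spermatid effect numbered 1426, against 3209 with upper quartile scaling and 3725 with total counts, and ranged over 933 to 1472 when single libraries were left out, with 933 and 941 without spermatocyte replicates 1 and 2 labelled knockout. The cause was not tested. Of the values under alternatives of the 93 genes that the naming rule gave besides Nkapl, 1746 kept direction and call, 0 reversed, and 18 lost the call, 11 of them for Sox30 (log2 fold change 0.077 to 0.15), 5 for Xist, 1 for Dcn and 1 for Rn45s. Of 71 other called genes in the text, 0 reversed, and Acr and Rps4l lost the call when single spermatocyte libraries were left out. Of 13 others not called, 7 were called under some alternative and 9 changed sign, among them Rfx2, Rnaseh2a and Mael. Reads not aligned ran against the total of the summary lines, at -0.0131 percentage points against 3.95. With a replicate block, 5317 genes were higher and 4055 lower; same-numbered libraries of different groups did not deviate together (correlations -0.018 to 0.043), so the numbers were not taken as pairs.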
